A study of Mus musculus with 6 samples.

Results

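Marker genes of intestinal stem cells were followed across colon tumours of control mice and of mice that carry a human IL8 transgene. The set was chosen by name, with earlier results of these data known. It holds 10 genes, Lgr5, Ascl2, Olfm4, Smoc2, Prom1, Msi1, Sox9, Cd44, Prox1 and Tcf7. All probe sets annotated with exactly 1 of these symbols were taken, which gave 22 of 45101 probe sets and covered 9 of the genes. Tcf7 was not analysed here. Several short probes that match 1 transcript form a probe set, whose value here is a log2 expression value, so that a difference of 1 is a doubling. Of the 22 probe sets, 17 reached a log2 value of 4 on at least 3 of the 6 arrays and were tested, and these belong to 8 genes. Olfm4 did not reach 4 on any array.

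Each array holds total RNA of colon cancer tumour tissue. The 3 control arrays come from animals labelled wild type and the 3 transgenic arrays from animals labelled IL8 transgenic. All 6 animals are labelled male and of the CBA/C57BL/6 strain. The promoter of the transgene, the age of the animals, the origin of the tumours and the number of tumours behind an array were not given in the sources used here. Hence p-values reflect the spread among these 6 samples alone, part of which may be technical. The question is which genes differ in expression between tumours with and without the transgene.

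Intestinal epithelium is renewed by stem cells at the crypt base, where Wnt signals stabilise beta-catenin, which then acts with Tcf and Lef factors at its target genes. Most mouse and human colon tumours keep this pathway switched on through mutation, and so carry much of the crypt base programme in their epithelium. Lgr5, a receptor for R-spondins, and Ascl2, a basic helix-loop-helix transcription factor, are the defining genes of crypt base columnar stem cells and targets of Wnt signalling. Sox9, Cd44 and Prox1 are also Wnt targets in the intestine but are not specific to stem cells.

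The promoters of 3 of the genes are shown because their levels, given further on, took different courses on 1 transgenic array: Prox1 and Ascl2 were low there and Cd44 was not. The sequences are the 250 bases before the gene start on the strand of the gene, from RefSeq on GRCm38.p6. They lie at chr1:190170828-190171077 for Prox1 (the more upstream of its 2 listed starts), chr7:142969265-142969514 for Ascl2 and chr2:102901666-102901915 for Cd44, all on the minus strand.
Prox1: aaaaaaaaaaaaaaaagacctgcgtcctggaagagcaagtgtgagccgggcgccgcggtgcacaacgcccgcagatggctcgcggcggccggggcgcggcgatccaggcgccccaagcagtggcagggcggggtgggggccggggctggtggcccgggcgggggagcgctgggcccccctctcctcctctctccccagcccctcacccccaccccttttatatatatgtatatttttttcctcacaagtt
Ascl2: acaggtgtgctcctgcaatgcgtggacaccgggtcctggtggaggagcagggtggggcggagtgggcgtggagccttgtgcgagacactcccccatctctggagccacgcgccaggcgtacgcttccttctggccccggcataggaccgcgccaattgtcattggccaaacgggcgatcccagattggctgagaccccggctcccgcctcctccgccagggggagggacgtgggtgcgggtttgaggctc
Cd44: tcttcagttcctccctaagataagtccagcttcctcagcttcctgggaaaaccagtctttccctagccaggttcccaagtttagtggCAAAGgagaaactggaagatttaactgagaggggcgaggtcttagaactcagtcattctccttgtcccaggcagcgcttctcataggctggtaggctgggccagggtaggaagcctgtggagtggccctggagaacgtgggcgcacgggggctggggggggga
Capitals mark CAAAG, the reverse complement of the first 5 bases of the Tcf and Lef motifs. The motifs searched were CTTTGAT and CTTTGAA, on both strands. Neither was found in any of the 9 promoters listed for 6 of the 10 genes, and 7.48% of the 32851 promoters of the table held at least 1 of them. The shorter string CTTTG, searched on both strands after the motifs had given no match, was in 2 of the 9 promoters, that of Cd44 and the downstream one of Prox1, and in 48.6% of all promoters. These are matches of letters in a short window and say nothing of binding.

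None of the 17 tested probe sets passed. With limma, 0 of 17 had an adjusted p under 0.05, against 0.057% of all 19310 probe sets tested, and 2 of 17 had an unadjusted p under 0.05, against 5.5%. The adjusted p, over all probe sets tested, ran from 0.806 to 0.990. The mean was lower in the transgenic group for 13 of the 17 probe sets and for 53.2% of all probe sets tested. Groups did not overlap for 3 probe sets on the lower side, 1 each of Smoc2, Msi1 and Prox1, and for 2 of Cd44 on the higher side, where 6.31% and 4.61% of all probe sets tested did the same. The median difference over the 8 genes, with the brightest probe set of each, was -0.61, and -0.02 over all probe sets tested. Probe sets of 1 gene share their transcripts and are not independent. A probe set could also be kept because of the group in which it was higher, as 1 each of Prox1 and Msi1 were. These counts therefore describe the set and support no claim about it.

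Much of the lower side came from transgenic array 2. That array was the lowest of the 6 for 12 of the 17 probe sets, while it was the lowest for 29.1% of all probe sets tested. It lay at least 1 log2 unit under the control mean for 8 of the 17, against 8.75% of all probe sets tested. Transgenic array 1 did so for 1 of 17, against 6.04%, and array 3 for 1 of 17, against 0.73%, in both cases the same probe set of Prox1. Without transgenic array 2, 10 of 17 probe sets were lower, against 51.0% of all probe sets tested, and the median over the 8 genes was -0.31. Array 2 was singled out after its values had been seen.

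**Figure D1:**
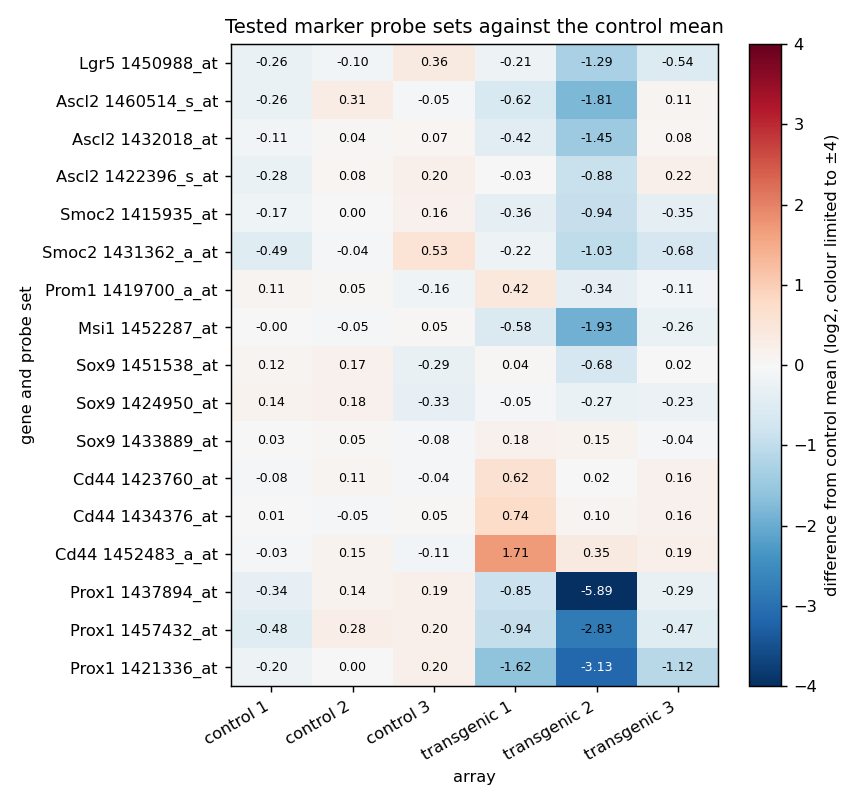
Each cell gives the difference of 1 array from the control mean on the log2 scale, for the 17 tested probe sets (rows) on the 6 arrays (columns), with the colour limited to 4 units either way. Transgenic array 2 holds the strongest negative values, down to -5.89 for Prox1, and transgenic array 1 the strongest positive one, 1.71 for Cd44.

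Other properties of the arrays run with the groups and with array 2. Xist, the RNA of the inactive X chromosome, was at 2.64 or less on the control arrays and at 12.27 or more on the transgenic arrays, and the Y-linked gene Eif2s3y was at 9.99 or more and at 2.71 or less. This goes against the male label of the 3 transgenic samples, and sex and genotype cannot be told apart in any comparison here. On transgenic array 2, 12 of the 13 squamous epithelium genes with a probe set reached 4, against 4 or 5 of 13 on the other arrays. The mean level of these 13 genes was 9.77 on that array and 3.65 to 4.20 elsewhere. The keratinocyte protein gene Krtdap was at 12.31, with 2.62 as its highest value elsewhere, and Trp63, the transcription factor of squamous basal cells, at 8.97, with 2.29 as its highest elsewhere. Enteroendocrine genes (mean level 8.12 against 3.96 to 5.73 in control) and smooth muscle genes (10.15 against 6.45 to 7.37) were also high on array 2, and less so on transgenic array 3, at 7.41 and 8.97. Their part in the results on stem cell genes was not tested.

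Epithelial genes were present on every array. All 15 epithelial identity genes had a probe set and reached 4 on all 6 arrays. Their mean level was 11.68 on transgenic array 2, within the span of the other 5 arrays, 11.27 to 11.69. In tumour pieces such as these, fewer cells of a type and less RNA per cell cannot be told apart.

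Lgr5 was clearly present on all arrays. Its brighter probe set (1450988_at) was at 9.82, 9.98 and 10.44 in control tumours and at 9.87, 8.80 and 9.54 in transgenic tumours. The groups overlapped, because transgenic array 1 lay above control array 1, and array 2 was the lowest. Lgr5 differed by -0.68 ± 0.32 (SE, n = 3 per group; limma adjusted p 0.806), with a 95% confidence interval from -1.45 to 0.09. Without transgenic array 2 the difference was -0.38. On array 2 Lgr5 lay 2.44-fold under the control mean, and 1161 of the 19310 probe sets tested were at least as far below on that array. On transgenic array 3 Lgr5 differed from the control mean by less, -0.54. Fewer probe sets, 711 of the 19310, were at least as far below on array 3, so its low place was not particular to array 2. Its other probe set (1444519_at) stayed under 4 on every array and was also lowest on transgenic array 2, at 2.93.

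Ascl2, which works with Lgr5 and Wnt signals to hold the stem cell state, followed a similar course on array 2 and no clear one on the others. The brightest of its 3 probe sets (1460514_s_at) was at 8.18, 8.74 and 8.39 in control tumours and at 7.81, 6.63 and 8.54 in transgenic tumours. Transgenic array 3 lay within the control values and array 2 was 1.19 under the next lowest array. The difference was -0.78 ± 0.48 (SE; limma adjusted p 0.806) with all arrays. Leaving out transgenic array 2 gave -0.26, and leaving out array 3 gave -1.22. The suffix of this probe set says that its probes can match more than 1 transcript family, so the unique probe set 1432018_at is given as well. It was at 7.69, 7.84 and 7.87 in control tumours and at 7.38, 6.35 and 7.88 in transgenic tumours, and differed by -0.60 ± 0.38 (SE; limma adjusted p 0.806). Leaving out array 2 gave -0.17, and leaving out array 3 gave -0.94. The dim probe set 1422396_s_at, close to 4 on all arrays, differed by -0.23, by -0.37 without control array 1, by -0.13 without control array 3, by -0.46 without transgenic array 3 and by 0.09 without transgenic array 2.

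Smoc2, a secreted calcium-binding matrix protein found in stem cells and in stroma, had 1 of the 2 probe sets with an unadjusted p under 0.05. Its brighter probe set (1415935_at) was at 10.48, 10.65 and 10.81 in control tumours and at 10.28, 9.71 and 10.30 in transgenic tumours. All 3 transgenic arrays lay under all 3 control arrays, with a gap of 0.18 between the lowest control array and the highest transgenic array. The difference was -0.55 ± 0.21 (SE; limma unadjusted p 0.041, adjusted p 0.806), and -0.36 without transgenic array 2. The second probe set (1431362_a_at) was at 7.15 to 8.18 in control and 6.62 to 7.43 in transgenic tumours, with overlap, and differed by -0.64 ± 0.33 (SE; limma adjusted p 0.806) or, without control array 3, by -0.37. Fibroblast and matrix genes mark a second possible source of Smoc2. All 9 tested were lower in transgenic tumours, as were 53.2% of all probe sets tested. The mean level of the 9 was 10.57 to 10.61 in control tumours and 9.23, 10.41 and 10.09 on transgenic arrays 1 to 3. Of the 9, 2 were lowest on array 2, Pdgfra at 8.71 and Vim at 11.77, where 29.1% of all probe sets tested were lowest. The part of these genes in the Smoc2 difference was not tested.

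Msi1, an RNA-binding protein of neural and intestinal stem cells, was near the detection level. Its one tested probe set (1452287_at) was at 4.48, 4.43 and 4.53 in control tumours and at 3.90, 2.55 and 4.22 in transgenic tumours. All transgenic arrays lay under all control arrays, and 2 of them were under 4. The transgenic arrays alone would not have kept this probe set. It passed the filter through its control arrays, the group in which it was higher, so its p supports nothing. The difference was -0.92 ± 0.43 (SE; limma adjusted p 0.806), -0.42 without transgenic array 2 and -0.41 with values under 4 set to 4. A second probe set (1444306_at) was at 3.63 to 3.77 on the control arrays, at 3.68 and 3.67 on transgenic arrays 1 and 3, and at 2.50 on array 2. The third (1421409_at) was at 2.33 to 2.605 on all 6 arrays. Both were under 4 throughout and were not tested.

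Prox1 had the strongest differences of the set. Prox1 is a homeobox transcription factor that Wnt signalling switches on in colon tumours, and it is also made by lymphatic endothelial and enteroendocrine cells. Its brightest probe set (1437894_at) was at 9.68, 10.16 and 10.21 in control tumours and at 9.17, 4.12 and 9.72 in transgenic tumours. Transgenic array 3 overlapped with the control values, array 1 lay 0.51 under the lowest control array, and array 2 lay 5.05 under the next lowest array, close to the detection level. On array 2 Prox1 was 59.5-fold under the control mean, and 19 of the 19310 probe sets tested were at least as far below. The group difference was -2.34 ± 1.43 (SE; limma adjusted p 0.806), with a 95% confidence interval from -5.81 to 1.12, and it was -0.57 without transgenic array 2.

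The other Prox1 probe sets had the same order of transgenic arrays. Probe set 1457432_at was at 6.86, 7.62 and 7.54 in control tumours and at 6.40, 4.52 and 6.87 in transgenic tumours, and differed by -1.41 ± 0.62 (SE; limma adjusted p 0.806), or by -0.71 without transgenic array 2. Transgenic array 3 and control array 1 met at nearly the same value. Probe set 1421336_at was at 4.80, 5.002 and 5.20 in control tumours and at 3.38, 1.87 and 3.88 in transgenic tumours. All transgenic arrays were under 4 and under all control arrays, so the level was at least 2.0-fold lower. This probe set was kept by the filter only through its 3 control arrays, the group in which it was higher, so its p supports nothing. The measured difference was -1.96 ± 0.51 (SE; limma unadjusted p 0.0075, adjusted p 0.806), and -1.37 without transgenic array 2. The mean level of the enteroendocrine genes was 8.12 on array 2 and 7.41 on array 3, against 3.96 to 5.73 in control tumours. The brightest Prox1 probe set was at 4.12 and at 9.72 on these 2 arrays. The 5 lymphatic genes with a probe set had a mean level of 4.33 to 4.70 in control tumours and of 4.82, 5.46 and 4.26 in transgenic tumours, and 1 of them, Mmrn1, was under 4 on every array. Among them Lyve1, a hyaluronan receptor, was at 3.29 to 4.06 in control tumours and at 4.99, 5.39 and 3.21 in transgenic tumours. It was highest on array 2, as were the dim genes Flt4, Mmrn1 and Reln. Pdpn, the brightest of the 5, was lowest on array 2, at 8.95 against 9.17 to 9.74 in control tumours. The part of these cell types in the Prox1 levels was not tested.

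**Figure D2:**
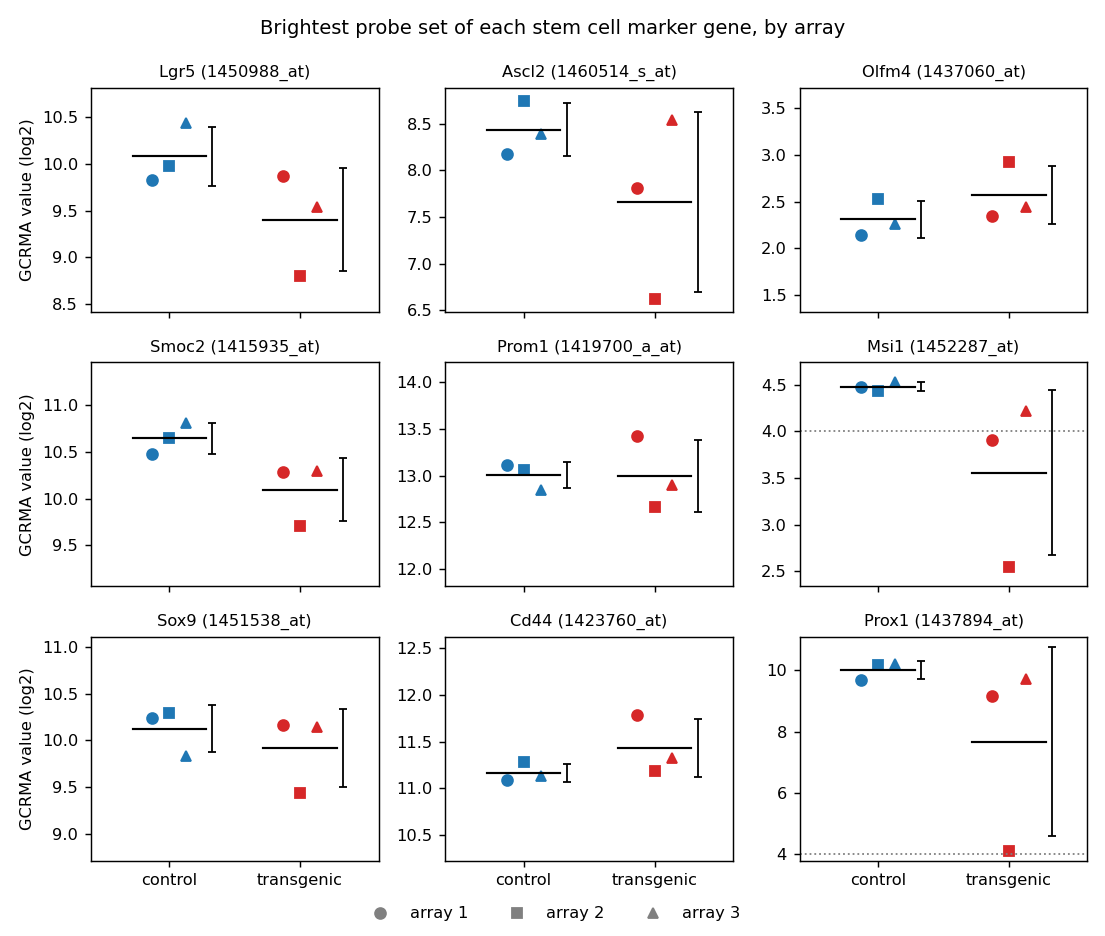
GCRMA log2 values of the brightest probe set of each of the 9 genes, 1 point per array, with the group mean as a line and the SD beside it (n = 3 per group); each panel has its own axis, and the dotted line marks 4. Prox1 lay far under the other arrays on transgenic array 2, at 4.12, while Prom1 stayed between 12.66 and 13.42 on all 6 arrays.

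The brightest probe sets of Prom1 and Sox9 were also lowest on array 2, but by less than that of Prox1. They lay 0.18 and 0.39 under the next lowest array, against 5.05 for Prox1. Prom1, a membrane glycoprotein known as CD133, was among the bright probe sets (1419700_a_at), at 13.12, 13.06 and 12.84 in control tumours and at 13.42, 12.66 and 12.90 in transgenic tumours. The groups overlapped, with both the highest and the lowest array in the transgenic group. The difference was -0.012 ± 0.23 (SE; limma adjusted p 0.990), its 95% confidence interval ran from -0.57 to 0.54, and with 1 array left out it ran from -0.23 to 0.15.

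Sox9, an HMG-box transcription factor of stem, progenitor and Paneth cells, was at 10.24, 10.30 and 9.84 in control tumours and at 10.17, 9.44 and 10.14 in transgenic tumours with its brightest probe set (1451538_at). Only array 2 lay outside the control values. The difference was -0.21 ± 0.26 (SE; limma adjusted p 0.867) with a 95% confidence interval from -0.83 to 0.41, and with 1 array left out it ran from -0.35 to 0.03. Probe set 1424950_at differed by -0.18 and probe set 1433889_at by 0.099, both with overlapping groups. With 1 array left out the first ran from -0.092 (without control array 2) to -0.35 (without control array 3), and the second was at 0.057 with transgenic array 1 removed and at 0.17 with array 3 removed. The intervals for Prom1 and Sox9 hold differences in both directions, so these data do not show that the levels were equal.

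Cd44, the hyaluronan receptor, was the one gene of the 8 that was higher in the transgenic group with its brightest probe set, and it is carried by leukocytes and stroma as well as by crypt cells. That probe set (1423760_at) was at 11.09, 11.28 and 11.13 in control tumours and at 11.78, 11.19 and 11.33 in transgenic tumours, with overlap, and differed by 0.27 ± 0.20 (SE; limma adjusted p 0.810). Probe set 1434376_at was at 10.55, 10.49 and 10.59 in control tumours and at 11.28, 10.64 and 10.71 in transgenic tumours, without overlap, and differed by 0.33 ± 0.21 (SE; limma adjusted p 0.806). Probe set 1452483_a_at was at 6.50, 6.68 and 6.42 in control tumours and at 8.24, 6.89 and 6.73 in transgenic tumours, again without overlap, and differed by 0.75 ± 0.41 (SE; limma adjusted p 0.806). All 3 were highest on transgenic array 1, as 25.6% of all probe sets tested were. Without that array the differences were 0.092, 0.13 and 0.27 in the same order. The remaining probe set (1443265_at) was under 4 on every array.

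Markers of cell types that carry Cd44, and of dividing cells, were read on array 1 as well. The mean level of the 5 B and plasma cell genes with a probe set was 6.58 there, against 4.94 to 5.39 on the control arrays and 6.14 and 6.81 on transgenic arrays 2 and 3. Of these 5, Ighm, the heavy chain of IgM, alone lay above its control values on array 1. Ighm was at 3.36, 4.25 and 4.35 in control tumours and at 11.64, 9.93 and 9.73 in transgenic tumours (limma adjusted p 0.032). The 9 myeloid genes had a mean level of 8.92 on array 1 and of 8.84 to 9.18 on the control arrays, with single members on both sides. The lipopolysaccharide receptor gene Cd14 was at 11.43 on array 1 against 10.22 to 10.39 in control tumours, and S100a9, a neutrophil calcium-binding protein, at 11.39 against 10.05 to 10.78. The leukocyte phosphatase gene Ptprc was at 8.56 against 9.56 to 10.08, and the macrophage gene Adgre1 at 4.38 against 6.05 to 6.58. Of the 8 myeloid genes tested with limma, 5 were lower and 3 higher over the groups. An unadjusted p under 0.05 was found for 5 and an adjusted p under 0.05 for 0. Over all probe sets tested, 53.2% were lower and 5.5% had an unadjusted p under 0.05. The median difference of the 8 genes was -0.90, or -0.38 without transgenic array 2. Of the 9 T cell genes with a probe set, 5 were under 4 on every array, Cd3e and Cd4 among them, and the mean level of the 9 was 3.37 on array 1 against 3.65 to 3.85 on the control arrays. The 15 proliferation genes were lowest on array 1, at 8.71 against 9.48 to 9.86 on the control arrays and 9.64 and 9.69 on the other transgenic arrays. The part of these genes' cell types in the Cd44 difference was not tested.

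Olfm4, a secreted glycoprotein that marks stem cells of the small intestine and human colon, was at 2.14, 2.53 and 2.26 in control tumours and at 2.35, 2.92 and 2.44 in transgenic tumours. All values were under 4, so no fold is given.

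**Figure D3:**
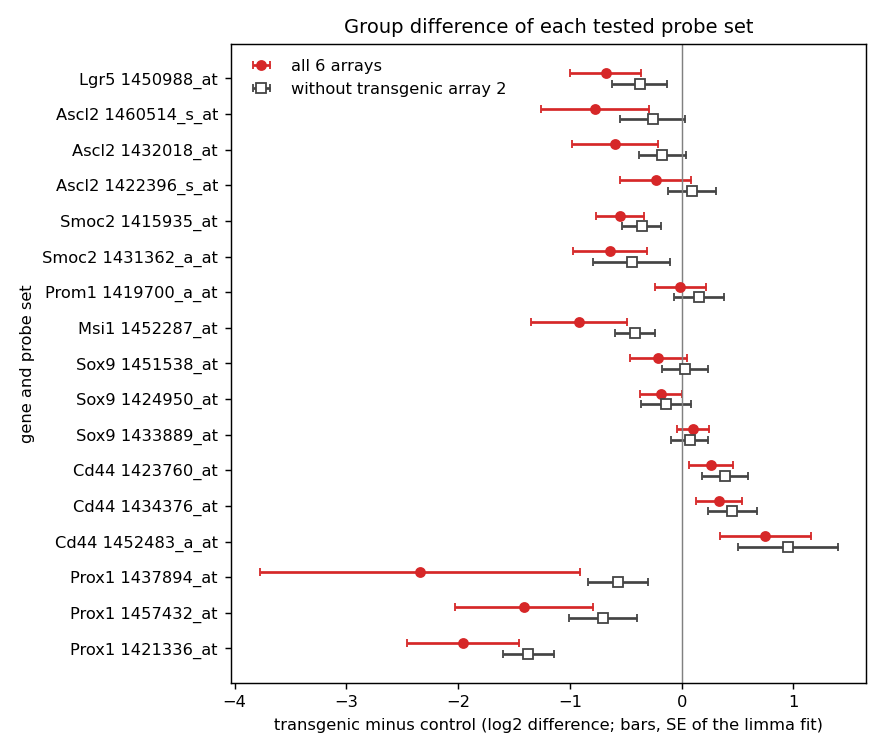
Transgenic minus control difference of each of the 17 tested probe sets on the log2 scale, with bars for the SE of the limma fit, for all 6 arrays (filled circles) and without transgenic array 2 (open squares). The brightest Prox1 probe set moves from -2.34 to -0.57 without that array, and the Cd44 probe sets stay on the higher side.

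Other crypt base genes were read from a list of 29, of which 27 had a probe set and 26 were tested. With limma 0 of 26 had an adjusted p under 0.05 and 0 an unadjusted p under 0.05. Over all probe sets tested the shares were 0.057% and 5.5%, and 53.2% were lower. Of the 26 genes 19 were lower and 7 higher. The median difference was -0.28, and -0.11 without transgenic array 2. The groups did not overlap for 2 lower genes and 1 higher gene, beside 6.31% and 4.61% of all probe sets tested. By smallest p, the leading genes were Igfbp4, which binds insulin-like growth factors and differed by -0.51, the ephrin receptor gene Ephb3, which differed by -0.80 (-0.46 without transgenic array 2), and the Wnt receptor gene Fzd7, which differed by 0.48 (0.26 without that array).

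On transgenic array 2, 8 of these 26 genes lay at least 1 log2 unit under the control mean, against 8.75% of all probe sets tested. On array 1 it was 2, against 6.04%, and on array 3 it was 0, against 0.73%. The 5 genes with the deepest values on array 2 were Notum, Sp5, Nkd1, Tnfrsf19 and Axin2, named here after their values were seen. Notum, a secreted inhibitor that cleaves lipid from Wnt proteins, was at 9.06, 10.00 and 9.89 in control tumours and at 9.76, 3.97 and 9.23 in transgenic tumours. Nkd1, an intracellular inhibitor, was at 10.73, 11.18 and 11.14 and at 11.18, 6.15 and 11.10. Sp5, a zinc finger target of beta-catenin, was at 9.22, 9.53 and 9.79 and at 9.91, 4.05 and 8.93.

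Axin2, the scaffold of the beta-catenin destruction complex and a common readout of Wnt signalling, was at 10.90, 11.42 and 11.15 in control tumours and at 11.27, 7.94 and 10.80 in transgenic tumours. Tnfrsf19, a receptor found in crypt base cells, was at 10.09, 10.31 and 10.55 and at 9.17, 5.92 and 10.07. For all 5 genes array 2 was by far the lowest, as it was for Prox1. The difference of these genes without array 2 was -0.16 for Notum, 0.12 for Nkd1, -0.095 for Sp5, -0.12 for Axin2 and -0.70 for Tnfrsf19.

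Other genes, also chosen after their values were seen, were at or above their control values on array 2. Lgr4, the sister receptor of Lgr5, was at 11.45 there and at 11.19 to 11.34 in control tumours. Myb, a transcription factor of progenitors, was at 11.34 against 10.85 to 11.06, and the chloride cotransporter gene Slc12a2 at 12.93 against 12.51 to 12.60. The epithelial adhesion gene Epcam, at 13.86, lay within its control values of 13.82 to 13.93.

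Of 11 genes for Tcf and Lef factors and their partners, 10 were tested and 0 passed with limma. Over all probe sets tested 53.2% were lower, and of these 10 genes 7 were lower and 3 higher. The median difference was -0.09, and it was -0.0054 without transgenic array 2 and -0.18 without control array 3 (-0.15 without transgenic array 1). Tcf7l1, which mostly represses its targets, was at 8.26, 7.15 and 6.58 in control tumours and at 8.25, 9.85 and 8.32 in transgenic tumours, and had an unadjusted p under 0.05, with a difference of 1.48 ± 0.59 (SE; limma adjusted p 0.806) that was 0.96 without transgenic array 2. Lef1, a factor that colon tumours add to the normal set, was at 8.19, 8.55 and 8.25 in control tumours and at 7.13, 3.27 and 7.94 in transgenic tumours. Its groups did not overlap, and it differed by -2.22 ± 1.16 (SE; limma adjusted p 0.806), or by -0.79 without transgenic array 2. Ctnnb1, which encodes beta-catenin, was at 13.56 on array 2 and at 13.78 to 13.86 on the other arrays, and Tcf7l2, the main factor of the epithelium, at 9.56 within its control values of 9.06 to 9.60. The corepressor genes Tle1 and Tle3 were at 8.61 and 8.92 on array 2, and each was at 9.78 or more on the other 5 arrays. Ctnnb1, Tcf7l2 and Tle3 were named after their values were seen.

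The lists of stem cell markers, dividing cells and epithelium stood at different levels on array 2. The 15 proliferation genes had a median deviation of 0.02 from the control mean on array 2, the 15 epithelial identity genes one of 0.23, and the 8 stem cell marker genes one of -1.11. The 26 other crypt base genes tested had one of -0.41 and the 8 myeloid genes tested one of -1.48. A low median on array 2 was thus not particular to the stem cell markers. With each array centred on the epithelial identity genes, the median difference of the 8 genes was -0.84 and 0 of 17 probe sets passed with limma.

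**Figure D4:**
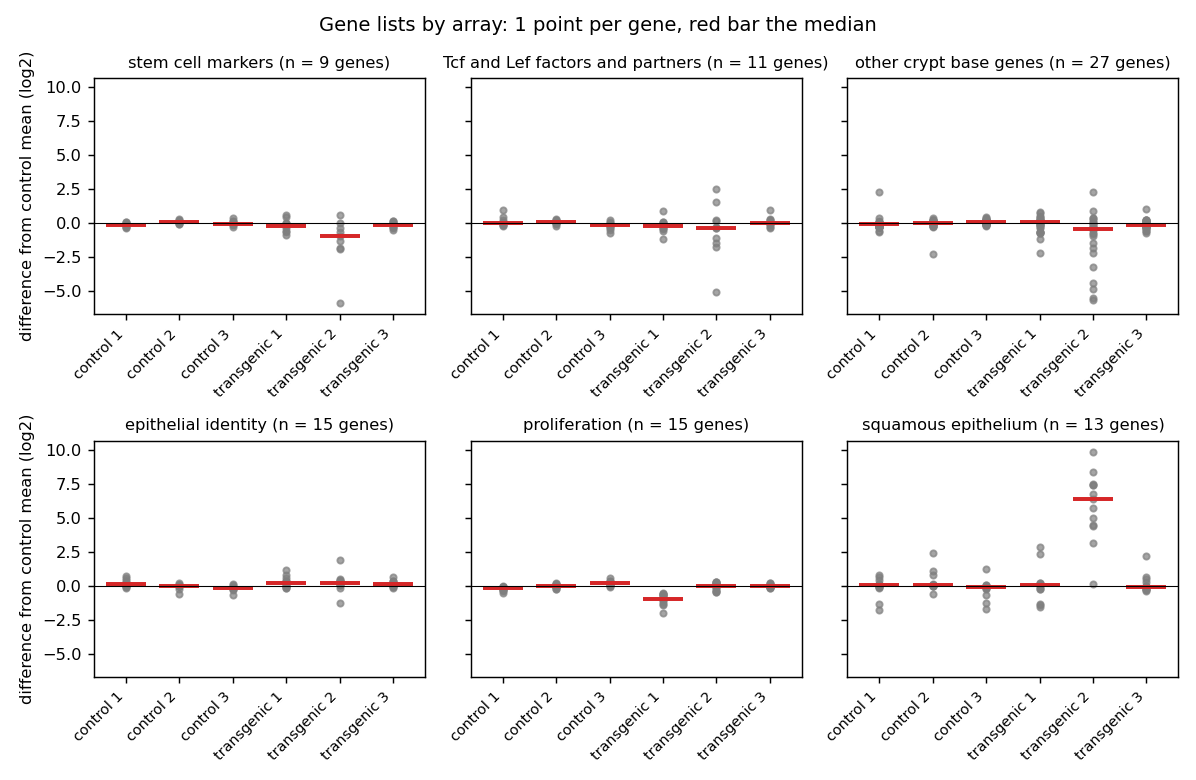
Difference from the control mean (log2) of every gene with a probe set, by array, for 6 gene lists; each point is 1 gene and the red bar the median. On transgenic array 2 the squamous genes stand high and some stem cell and crypt base genes low, while the proliferation and epithelial medians stay near 0, at 0.02 and 0.23.

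The genes with the profile most like that of Lgr5 were sought among 10281 other genes, by the root mean square difference between centred log2 values over the 6 arrays. The 5 closest were Ext1 (0.047), Pcbp4 (0.088), Fes (0.090), Wdr6 (0.0999) and Lamb2 (0.109). Ext1, an enzyme of heparan sulfate synthesis, was at 9.06, 9.15 and 9.72 in control tumours and at 9.07, 8.05 and 8.85 in transgenic tumours. All 5 were lowest on transgenic array 2. With 6 arrays and so many genes, close profiles are found by search alone, and the ranking is only a description.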

How the data were processed

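Total RNA of 6 tumour samples was hybridised to Affymetrix arrays, 1 per sample. The deposited values are log2 expression values that the authors made with GCRMA, per the submitters' processing notes (version and genome build: not given in the sources used here). Their range shows a log2 scale, and array medians were 3.31 to 3.36. The values were used without further normalization. Symbols were taken from the platform's annotation, in which 34958 of 45101 probe sets had 1 symbol, 932 several and 9211 none. AFFX controls, 64 probe sets, were not used. Probe sets with a log2 value of at least 4 on at least 3 arrays, 19310 in all, entered a limma 3.58.1 fit (lmFit, then eBayes; R 4.3.3) of transgenic minus control. P-values were adjusted by Benjamini-Hochberg over all of these. The procedure was tested on simulated data with independent probe sets and differences larger than most of those of the members. That test does not cover small differences or effects shared by many probe sets of an array. Precision is limited by the 3 arrays per group.

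All member probe sets were named, and the brightest over all arrays stood for its gene. From gene lists up to 3 genes of smallest p were named, and others are marked as chosen afterwards or serve as markers. The members and lists were chosen with earlier results of these data known. Alternatives were no filter, a filter at 6, quantile normalization, centring on the array median or on epithelial genes, a trended and robust prior, weights for array quality, a block for the replicate number, a floor of 4 on the values, a threshold of 0.1, another probe set rule and leaving out each array.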

Additional observations from a re-analysis of the deposited data

How the results depend on the processing

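In every alternative run, 0 member probe sets passed with limma, and the median difference over the member genes stayed negative, from -0.84 with arrays centred on epithelial genes to -0.31 without transgenic array 2. Over all probe sets tested, 8 to 12 passed. The differences of Lgr5, Smoc2, Msi1, Prox1, Cd44 and the 2 brighter Ascl2 probe sets kept their sign in all alternatives that tested them (a filter at 6 left out 4 dim probe sets). Centring on epithelial genes moved the median difference of all probe sets tested by -0.22, to -0.24, and made 14 of 17 member probe sets lower, against 79.5% of all. With 1 array left out, the sign turned for Prom1 (-0.23 to 0.15), for Ascl2 1422396_s_at (-0.46 to 0.092) and for Sox9 1451538_at (-0.35 to 0.031), and Sox9 1433889_at was at -0.12 with arrays centred on epithelial genes; the cause was not tested. The count of lower probe sets, added after seeing the data, ran from 10 to 13 with 1 array left out. The replicate numbers did not pair the samples: deviations from the group mean correlated at -0.267, -0.277 and -0.051 for equal numbers, and no array correlated best with its own number. With the replicate block, 8 probe sets passed over all tested and 0 of the members. Values near 4, as for Msi1 and Prox1 1421336_at, lie at the limit of signal over background, and their differences are the least certain in size.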

Other observations

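Genes linked to reserve or injury-associated stem cells went both ways. Of 11 listed, 8 were tested with limma, 4 lower and 4 higher, where 53.2% of all probe sets tested were lower. Of the 8 genes, 0 had an adjusted p under 0.05 and 0 an unadjusted p under 0.05. Their median difference was 0.004. With 1 array left out the lowest value was -0.22, when transgenic array 1 was removed, and the highest 0.0985, when array 3 was removed, and it was -0.22 with arrays centred on epithelial genes. Tert, the catalytic subunit of telomerase, was at 6.48, 6.62 and 6.29 in control tumours and at 6.12, 3.52 and 6.24 in transgenic tumours, and Mex3a, an RNA-binding protein, was at 8.58, 8.72 and 8.54 and at 9.13, 6.06 and 7.91. Both were thus lowest on transgenic array 2, like Prox1. Lrig1, which restrains EGF receptor signalling, was highest on that array, at 10.22 against 9.33 to 9.66 in control tumours. Lrig1 and Bmi1 were named after their values were seen. Bmi1, a polycomb protein, was at 9.35 there and at 9.65 to 9.70 in control tumours, and Anxa1, a gene of the injured epithelium, at 13.73 and at 12.68 to 13.31.

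Genes of secretory cells that neighbour stem cells were 5 lower and 4 higher among 9 tested, where 53.2% of all probe sets tested were lower. The 9 genes had a median difference of -0.05, and 0 passed with limma (0 at an unadjusted p under 0.05). The sign of this median turned with 1 array left out, to 0.21 or 0.039 when transgenic array 1 or 2 was removed and to 0.033 or 0.18 when control array 1 or 3 was removed. It stayed negative when control array 2 (-0.17) or transgenic array 3 (-0.11) was removed. By smallest p, the leading genes were the lysozyme genes Lyz2 and Lyz1, and Mmp7. Lyz2, which is also in the myeloid list, differed by -1.06 (-0.48 without transgenic array 2) and Lyz1 by -0.41 (-0.15 without that array). Mmp7, a matrix protease and Wnt target, was at 12.34, 12.39 and 12.99 in control tumours and at 13.00, 10.05 and 12.22 in transgenic tumours.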
